A study of Mus musculus with 8 samples.

Results

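The beta 2 integrins are the adhesion receptors of white blood cells, and the 5 genes of the family were followed by symbol in both deposited tables: Itgad, Itgam, Itgax, Itgal and Itgb2, 5 of 15283 genes listed for whole liver and of 22578 listed for nuclei. All 5 were found in both tables and all 5 passed the filter on low values. The members were chosen by symbol, as a family selected on the whole liver difference between the genotypes and on the cluster values of these same libraries, so their own differences are given as a description and nothing is read from them as a test.

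Each receptor pairs one of the alpha chains with the shared beta chain encoded by Itgb2. Itgal encodes CD11a, the alpha chain of LFA-1 on lymphocytes and most other leukocytes. Itgam (CD11b, Mac-1) and Itgax (CD11c) are used by monocytes, macrophages, granulocytes and dendritic cells, and Itgad (CD11d) by subsets of tissue macrophages. The receptors are held in an inactive shape until talin and kindlin-3 bind the beta tail, and once bound to ICAMs, fibrinogen or complement fragments they signal through Src family kinases and Syk.

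Control mice carried floxed Tgfbr1 alleles (flox/flox), and their labels name no Cre. Tgfbr1 MKO mice carried the same alleles with LysMcre, a Cre recombinase expressed from the Lyz2 locus of myeloid cells. These cells include neutrophils beside macrophages. Both groups had received a MASH diet, a model of metabolic dysfunction-associated steatohepatitis, for 30 weeks; strain, sex and age were not given in the sources used here. Whole liver RNA was sequenced from 3 livers per genotype, and nuclei from 1 pool of 3 livers per genotype, averaged by the submitters over 13 clusters. The comparison asks how the liver differs when myeloid cells lack Tgfbr1, a receptor for TGF-beta. Recovered reads per liver lay between 17448117 and 23986319. On the second principal component of the whole liver values MKO 1 stood apart at 48.5, with the other libraries from -23.0 to 4.67. Tgfbr1 itself had a log2 fold change of -0.13 ± 0.16 (SE) in whole liver, where its 3 MKO values of 560, 857 and 735 overlapped the control values of 737, 810 and 777. Macrophage-like nuclei had a mean of 13.5 in the control and 4.87 in the MKO pool. Which exon is floxed was not stated, and reads from other exons would not report its loss.

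Itgam, Itgax and Itgad lie side by side in the same orientation on mouse chromosome 7 (mm10, GENCODE vM21, + strand). Itgam spans 128062640 to 128118491, Itgax 128129547 to 128150657 and Itgad 128154376 to 128223816, with gaps of 11.1 kb and 3.72 kb between them. Itgal (127296260 to 127335138, + strand) lies 728 kb to their left, and Itgb2 is on chromosome 10 (77530252 to 77565708, + strand). The longest coding sequences are alike in the alpha chains, from 3504 bases in Itgam to 3609 bases in Itgad, and 2313 bases in Itgb2. The bases that encode the metal ion-dependent adhesion site, at which each chain holds a cation, are shown to compare the members there. Capitals mark the site, within 15 coding bases on either side, 5′ to 3′, read from the GENCODE transcripts.
Itgad: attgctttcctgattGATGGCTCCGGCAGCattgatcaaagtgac
Itgam: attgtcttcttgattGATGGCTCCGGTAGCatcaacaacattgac
Itgax: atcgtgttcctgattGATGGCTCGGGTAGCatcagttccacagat
Itgal: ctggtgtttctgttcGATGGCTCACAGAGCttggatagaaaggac
Itgb2: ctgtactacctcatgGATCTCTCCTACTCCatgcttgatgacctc

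Over whole coding sequences Itgad was closest to Itgax, with 72.4% of 3453 aligned bases identical, against 64.6% with Itgam and 57.0% with Itgal. Itgad and Itgax also shared an identical run of 188 coding bases, at coding bases 1324 to 1511 of Itgad and 1201 to 1388 of Itgax. It is printed because a read that falls within it cannot be placed in one gene from its sequence.
Shared run: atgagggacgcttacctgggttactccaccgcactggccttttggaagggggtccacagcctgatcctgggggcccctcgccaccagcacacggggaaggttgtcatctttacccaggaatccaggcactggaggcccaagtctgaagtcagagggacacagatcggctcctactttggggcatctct
Of the 50-base stretches in the Itgad transcript, 9.81% also occur in Itgax, in 6 blocks. Itgad further shares 5.18% of its stretches with 4931431B13Rik, a transcript on the opposite strand inside the Itgad gene (128192050 to 128203328, - strand), with 388 exonic bases in common. The annotation also holds Gm49368 (128062683 to 128128160, + strand), a protein-coding model that repeats 91.8% of the Itgam stretches; neither it nor 4931431B13Rik is among the genes listed for whole liver. Neither the sharing of reads among such genes nor the use of strand is described in the labels. The split between Itgad and Itgax reads, and between Itgad and its opposite strand, is therefore uncertain.

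RefSeq promoters (GRCm38.p6, 250 bases before to 50 after the start site) matched 2 of the 5 members, Itgam and Itgax, and are shown because these neighbours are higher together in whole MKO liver. Capitals mark GAGGAA on either strand, a core of sites for PU.1, the myeloid transcription factor.
Itgam, chr7:128062390-128062689, + strand: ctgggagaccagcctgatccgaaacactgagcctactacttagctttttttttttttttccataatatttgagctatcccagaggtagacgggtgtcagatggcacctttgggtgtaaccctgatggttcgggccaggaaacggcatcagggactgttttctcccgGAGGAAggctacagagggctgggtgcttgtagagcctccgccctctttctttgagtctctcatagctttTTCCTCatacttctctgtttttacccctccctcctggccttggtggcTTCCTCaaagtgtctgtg
Itgax, chr7:128129300-128129599, + strand: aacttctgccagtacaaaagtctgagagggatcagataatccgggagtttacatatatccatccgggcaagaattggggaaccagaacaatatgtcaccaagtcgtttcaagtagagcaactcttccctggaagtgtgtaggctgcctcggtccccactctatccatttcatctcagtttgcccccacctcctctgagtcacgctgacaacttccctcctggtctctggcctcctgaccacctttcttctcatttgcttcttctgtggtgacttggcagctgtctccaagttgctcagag
The Itgam window held GAGGAA 3 times, beginning at -84, -15 and 32 bases from the start site, and the Itgax window 0 times; 28.3% of 32851 promoters hold it at least once. TGTGGT, a core of RUNX sites, occurred in the Itgax window only of these 2, at 13 bases, and in 16.8% of all promoters. CAGAC, a core of SMAD sites, occurred once in each window and in 49.6% of all promoters. Both strands were searched, and the 3 motifs share no overlapping match in these windows. Such matches are letters in a window and not measured binding.

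In whole liver, every family member stood higher in the 3 MKO livers than in the 3 controls. Values are reads divided by a size factor for each library, and differences are log2 of the value plus 1. All 5 were among the genes called by limma (Benjamini-Hochberg adjusted p under 0.05), where 2.96% of 15249 genes tested were called higher and 0.0853% lower. They were also called by edgeR and by DESeq2, where 3.07% and 4.16% were called higher. For all 5 the groups did not overlap, where 10.4% of genes lay higher without overlap. The members were proposed on this contrast, so these counts describe them only. The median log2 fold change of the family was 1.92, beside -0.02 over all genes tested. Whole liver cannot tell more cells of a type from more RNA per cell.

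Itgad, the alpha chain of macrophage subsets, was read at 3.26, 3.15 and 4.93 in control 1 to 3 and at 76.9, 112 and 98.2 in MKO 1 to 3. It was close to undetected in every control liver and well above that in every MKO liver. The mean was 3.78 ± 0.997 (SD, n = 3) in controls and 95.8 ± 17.8 (SD, n = 3) in MKO livers. On the log2 scale the difference was 4.34 ± 0.31 (SE). The controls held only 11 Itgad reads in all against 275 in MKO livers, a 25.4-fold ratio with a 95% exact interval of 14.0 to 51.6 that covers counting error only.

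Itgam, the alpha chain of Mac-1, had control values of 70.6, 65.1 and 70.0 against MKO values of 165, 286 and 510. The controls lay close together while the MKO livers spread more than 3-fold, with MKO 1 lowest and MKO 3 highest. The log2 fold change was 2.06 ± 0.35, from 68.5 ± 3.01 to 320.3 ± 175, and between 1.65 and 2.46 with 1 library left out.

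Itgax, the alpha chain CD11c, had control values of 40.2, 31.5 and 43.4 against MKO values of 105, 92.8 and 119. It had the smallest difference of the 5, with a log2 fold change of 1.44 ± 0.21 from 38.3 ± 6.14 to 106 ± 13.3.

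Itgal, the alpha chain of LFA-1, had control values of 257, 181 and 132 against MKO values of 485, 668 and 705, a log2 fold change of 1.73 ± 0.25. Itgb2, the shared beta chain, had control values of 253, 209 and 153 against MKO values of 591, 723 and 1042, a log2 fold change of 1.92 ± 0.24. In both genes control 3 was the lowest control and MKO 3 the highest MKO liver. In the authors' deposited table the log2 fold changes were 4.66 for Itgad, 2.23 for Itgam, 1.46 for Itgax, 1.71 for Itgal and 1.94 for Itgb2.

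**Figure D1:**
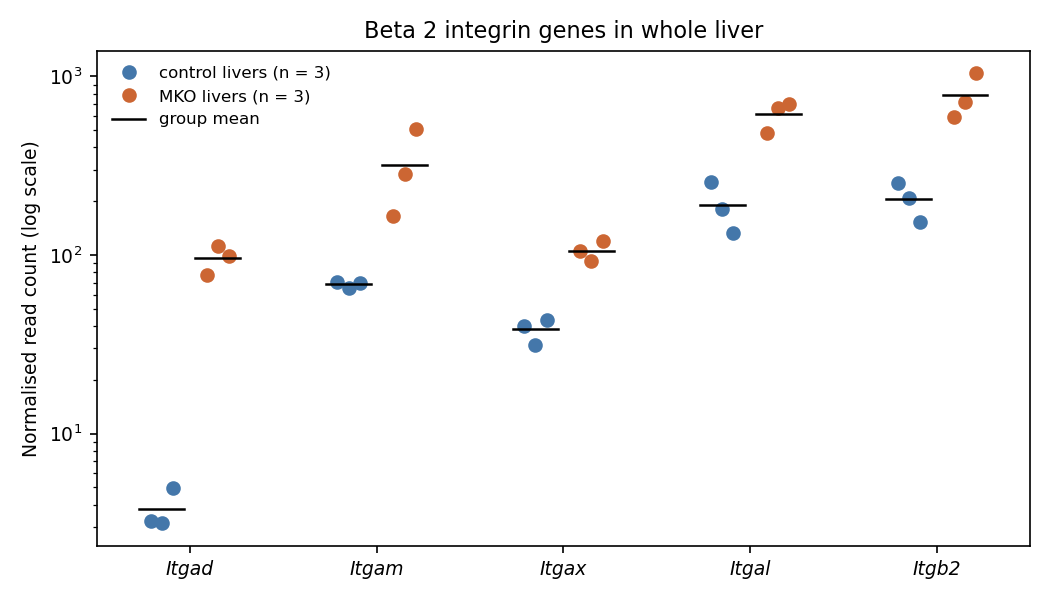
Normalised read counts (log axis) of the 5 beta 2 integrin genes in 3 control and 3 MKO livers; points are livers and bars are group means. All MKO points lie above all control points for each gene, and Itgad has the widest gap, from 3.15 to 4.93 in controls and from 76.9 to 112 in MKO livers.

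With 1 library left out, between 3 and 5 members passed the threshold. Without MKO 2 the count was 3, as Itgam and Itgal missed it, and 1.15% of genes were called higher. Itgam also missed it without control 2 (1.56% of genes), and Itgax without MKO 3 (1.19%). All 5 passed without control 1 (2.66%), control 3 (2.01%) or MKO 1 (2.69%), and Itgad and Itgb2 passed in each of the 6.

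Per kb of coding sequence, levels can be set side by side only roughly, as reads from outside the coding part count too. The whole transcripts run to 4533 bases in Itgal, 4046 in Itgax, 3965 in Itgad, 3701 in Itgam and 2970 in Itgb2. In controls Itgb2 lay between 66.0 and 109 per kb and Itgal between 36.6 and 71.4, ranges that overlap. Itgam lay between 18.6 and 20.1, Itgax between 8.97 and 12.4 and Itgad between 0.873 and 1.37, and these 3 were apart from each other and from Itgal. In MKO livers Itgax (26.4 to 34.0) and Itgad (21.3 to 31.1) overlapped, and so did Itgal (134 to 196) and Itgam (47.0 to 146). Itgb2 lay above all of them, between 255 and 451.

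The summed alpha chain level was close to the Itgb2 level in both genotypes. The ratio of the sum to Itgb2, per kb, was 0.949, 0.869 and 1.06 over the controls against 0.911, 1.04 and 0.893 over the MKO livers, with overlapping groups. Within that sum the Itgad share was 0.869%, 1.11% and 1.94% over the controls against 9.16%, 9.59% and 6.76% over the MKO livers, and did not overlap. The shares of Itgam (23.8 ± 4.51% and 27.2 ± 8.19%), Itgax (13.3 ± 3.67% and 9.82 ± 2.63%) and Itgal (61.5 ± 8.54% and 54.5 ± 5.13%) did overlap between controls and MKO livers. Before scaling by length, the normalised read count of Itgad was 0.0811, 0.1 and 0.114 times that of Itgax in control 1 to 3 and 0.733, 1.21 and 0.823 times in MKO 1 to 3, so the 2 genes that share sequence did not keep 1 ratio.

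**Figure D2:**
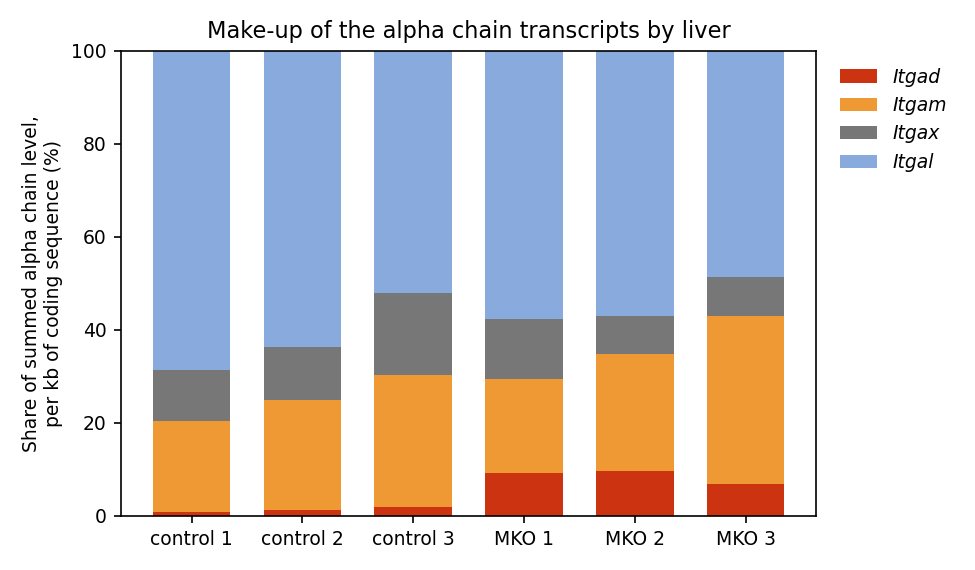
Share (%) of each alpha chain in the summed alpha chain level per kb of coding sequence, 1 stacked bar per liver. Itgad takes 0.869% to 1.94% in controls and 6.76% to 9.59% in MKO livers, and Itgal is the largest share in every liver.

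Markers of several leukocyte types, but not of all, were called higher as well. Over all genes tested 2.96% were called higher by limma, 3.07% by edgeR and 4.16% by DESeq2. Of 12 general macrophage markers 7 were called higher by limma, and their summed value ranged from 4394 to 6984 in controls and from 8522 to 14778 in MKO livers. Of 13 T and NK cell markers 3 were called higher (summed 172 to 281 and 408 to 672), and of 8 conventional dendritic cell markers 3 (305 to 399 and 648 to 729). The latter were Clec9a, Batf3 and Wdfy4. In the nuclei described below, Batf3 and Wdfy4 were 2-fold enriched in both pools in macrophage-like cluster 2 and in cluster 10. Wdfy4 was also enriched in cluster 8, and Clec9a in clusters 4 and 11. Their count is thus not read as an amount of conventional dendritic cells. Of 8 Kupffer cell markers 3 were called higher (4370 to 8286 and 10547 to 14668). Of 8 monocyte markers 0 were called by limma or edgeR, 1 by DESeq2, and 2 had an unadjusted p under 0.05, beside 12.1% of all genes tested (summed 20936 to 36703 and 20841 to 33898). Of 5 plasmacytoid dendritic cell markers 0 were called by limma or edgeR and 1 by DESeq2, with 1 at an unadjusted p under 0.05 (4182 to 4457 and 4306 to 4861). Bst2 held most of that sum, at 3666 to 3914 in controls and 3754 to 4316 in MKO livers. Siglech stood at 15.2 to 23.1 and 11.6 to 26.5. In nuclei, Fn1 of the monocyte list was likewise 2-fold enriched in hepatocyte-like clusters 0, 1 and 3. Whether these sums follow the amount of either cell type was not tested. Of 7 B cell markers 0 were called by limma or edgeR, 2 higher and 1 lower by DESeq2, and 3 had an unadjusted p under 0.05 (151 to 472 and 224 to 402). For 6 neutrophil markers 1 was called (summed 145 to 162 and 216 to 316), Csf3r, which was also enriched in clusters 2 and 10. The neutrophil genes Ly6g, Camp, Ngp and Retnlg were not among the genes tested. The part of these cell types in the family's differences was not tested.

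Set against the summed macrophage markers, Itgad stayed apart between the genotypes, at 0.466, 0.528 and 1.12 per 1000 marker units over the controls against 9.02, 8.29 and 6.65 over the MKO livers. Itgb2 was 36.2, 35.0 and 34.8 per 1000 over the controls against 69.3, 53.4 and 70.5 over the MKO livers. Itgal was 30.1 to 36.8 and 47.7 to 56.9. Itgam (10.1 to 15.9 and 19.3 to 34.5) did not overlap either, while Itgax (5.28 to 9.87 and 6.86 to 12.3) did. Lyz2, whose locus holds the Cre, was also taken out of the markers, an alternative chosen after seeing the data. Itgam then overlapped too (13.1 to 20.8 and 20.6 to 37.9), and Itgad was 0.605 to 1.47 and 7.30 to 9.63. Itgb2 was then 42.4 to 47.0 and 57.5 to 77.4, and Itgal 36.7 to 47.8 and 52.4 to 60.7. Mpeg1, Lyz2 and Ctss had the highest control means of the 12 markers, with log2 fold changes of 1.05, -0.44 and 1.16. Over the 12 the range was -0.44 to 1.82, beside 1.92 for Itgb2 and 1.73 for Itgal. The part of the make-up of the sum in these values was not tested.

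The nuclei give the RNA level of each member by cluster. Clusters were named only where at least 3 markers of a cell type were 2-fold enriched in both pools. Cluster 2 was macrophage-like (12 of 12 markers) and also carried 8 of 8 Kupffer cell markers. Cluster 7 was T and NK-like (13 of 13), cluster 8 B-like (8 of 8) and cluster 11 plasmacytoid dendritic-like (7 of 8). Cluster 10 was led by cell division genes (8 of 8 markers) and also carried 8 of 8 Kupffer cell and 7 of 12 macrophage markers. No cluster was named after neutrophils, monocytes or conventional dendritic cells, so the nuclei cannot place a member in those cells. Values are means scaled to 10000 per cluster, the number of nuclei behind them is unknown, and with 1 pool per genotype there is no test.

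Itgad was nearly absent from macrophage-like nuclei of the control pool, at 0.0295, and stood at 1.503 in the MKO pool. In cluster 10 it was listed at 0 and at 1.91. In plasmacytoid dendritic-like nuclei it was present in both pools, at 1.02 and 1.58, so that this was the highest control cluster for Itgad. Every other cluster of either pool was at 0.0336 or below. The summed macrophage markers were 40.7 in the control and 43.1 in the MKO pool in cluster 2, but 13.6 and 26.1 in cluster 10. The summed Kupffer markers were 35.9 and 40.1 in cluster 2 and 13.1 and 26.9 in cluster 10. The part of these markers in the cluster 10 values was not tested.

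4931431B13Rik, the transcript on the opposite strand within Itgad, was picked out after its values were seen. It was listed at 0 in all 13 control clusters. In the MKO pool it was 1.36 in cluster 2 and 1.95 in cluster 10, the clusters where Itgad differed most, and 0.0927 in the plasmacytoid dendritic-like cluster, where Itgad was 1.58. In the remaining MKO clusters it was between 0 and 0.0476. Gm39091 and the plasmacytoid dendritic cell marker Cox6a2, which also share exonic stretches with Itgad on the opposite strand, stood at 0 in control and at 0.445 and 0.496 in MKO nuclei of cluster 11. As the use of strand in counting is not stated, reads of Itgad and of these genes cannot be told apart in shared exons.

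Itgam was highest in macrophage-like nuclei of both pools (1.59 and 2.26), followed by cluster 10 (0.236 and 0.993), and it was listed at 0 in cluster 11 of both pools. Itgax stood at 0.882 in control and 0.620 in MKO macrophage-like nuclei, lower in the MKO pool where whole MKO liver was higher, and at 0.474 and 0.679 in cluster 10. Both of its cluster 2 values lay under the floor set for a ratio, the 90th percentile of genes in the cluster (1.44).

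Itgal was highest in T and NK-like nuclei, at 4.54 and 4.34, and stood at 3.41 and 3.38 in macrophage-like nuclei. In plasmacytoid dendritic-like nuclei it was 3.54 and 2.13, in cluster 10 2.24 and 1.94, and in B-like nuclei 0.705 and 0.914. Itgb2 was 1.59 and 1.77 in T and NK-like nuclei, 1.05 and 1.44 in macrophage-like nuclei, 0.427 and 0.805 in cluster 11 and 0.258 and 1.71 in cluster 10. In the hepatocyte-like clusters 0, 1 and 3 all 5 genes were at 0.0191 or below in both pools.

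A gene reaches the floor of a cluster through the larger of its values, and in macrophage-like nuclei Itgad and Itgb2 did so only through the MKO pool. Of the 4 members that reached it Itgad was past 2-fold, where 5.04% of 1905 genes were past 2-fold higher and 4.72% lower, and nothing is read from that count. In cluster 10, where 11.1% of 1480 genes were past 2-fold higher and 10.9% lower, Itgal alone of the family reached the floor (2.01) and was not past 2-fold. With a floor there at the 75th percentile (0.859) Itgad, Itgam and Itgb2 also reached it, each only through the MKO pool, and were past 2-fold higher, beside 10.2% of 3699 genes. The cluster 2 log2 ratios, with a pseudocount of 0.144, were 3.25 for Itgad, 0.47 for Itgam, 0.40 for Itgb2 and -0.01 for Itgal, beside a median of -0.07 over those genes. The Itgad ratio depends on the pseudocount, at 1.004 with a pseudocount 10 times larger and 5.11 with one 10 times smaller. In the T and NK-like cluster the log2 ratios were -0.06 for Itgal and 0.14 for Itgb2. Itgal thus had near equal values between the pools in both clusters while its whole liver value was 3.26-fold higher in MKO livers.

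**Figure D3:**
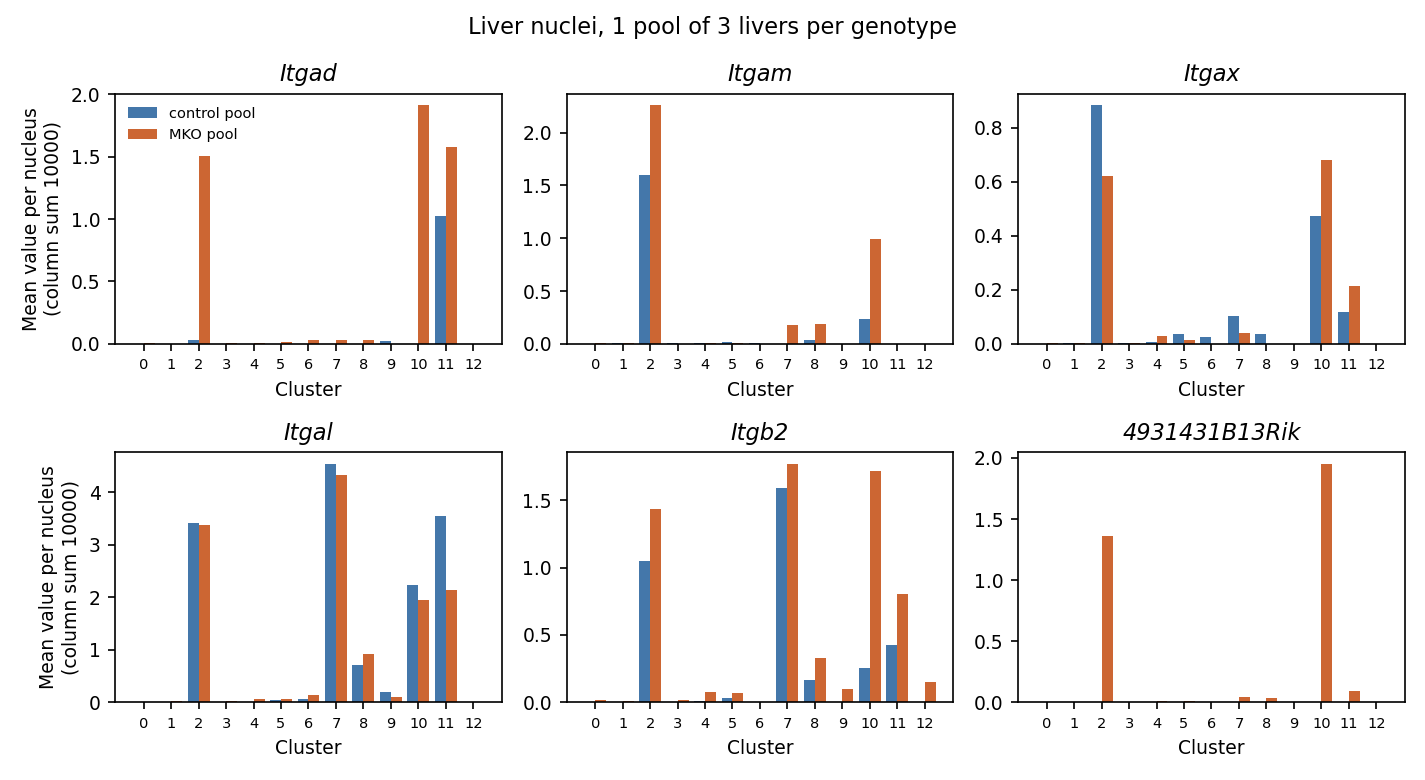
Mean value per nucleus (each column scaled to sum to 10000) of the 5 family genes and of 4931431B13Rik in clusters 0 to 12, for the control and the MKO pool. Itgad and 4931431B13Rik stand out in clusters 2 and 10 of the MKO pool, Itgad also in cluster 11 of both pools, and the Itgal bars of both pools are near equal in clusters 2 and 7.

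The genes most like each member over the 26 cluster columns were ranked by Pearson correlation on log2(value + 0.01) among 10191 genes. These columns share pools and an unknown depth, so the correlations are descriptions. Itgal ran closest to Pik3r5 (r = 0.972), Epsti1, Dock2, Samsn1 and Ptprc, the gene of the leukocyte surface phosphatase CD45. Itgb2 ran closest to Laptm5 (0.940), Cap1, Pfn1, Rgs10 and Selplg, a selectin ligand of leukocytes. Itgam ran closest to Kcna2 (0.951), Tlr8, Treml4, Ccr3 and Il1b, and Itgax to Vrk2 (0.916), B430306N03Rik, C130050O18Rik and Clec12a. Itgad had the lowest leading value, 0.863 with Arhgap27os2, followed by Runx2os1, F630206G17Rik, Clec10a and Tifab. Between members r was highest for Itgal and Itgb2 (0.851) and lowest for Itgad and Itgam (0.439).

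Of the genes that lie beside the family, the measured ones showed few differences. Within 100 kb of a member 24 genes were tested in whole liver. By limma 1 was called higher, beside 2.96% of all genes tested, and 0 lower. Their median log2 fold change was -0.02. Beside Itgam, Itgax and Itgad 7 genes were tested. The called one was Pycard, the adaptor of inflammasomes (68.8 kb left of Itgam), which had control values of 46.7, 30.4 and 24.6 against MKO values of 100, 136 and 127, a log2 fold change of 1.84 ± 0.27 (limma adjusted p = 0.00877). Leaving out MKO 2 or MKO 3 ended this call (adjusted p up to 0.0591). The other 6 had log2 fold changes from -0.02 to 0.67, including 9130023H24Rik (0.16 ± 0.18, adjusted p = 0.795), the nearest tested gene to the right of Itgad, and Trim72 (0.67 ± 0.60, adjusted p = 0.735), the nearest to the left of Itgam.

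**Figure D4:**
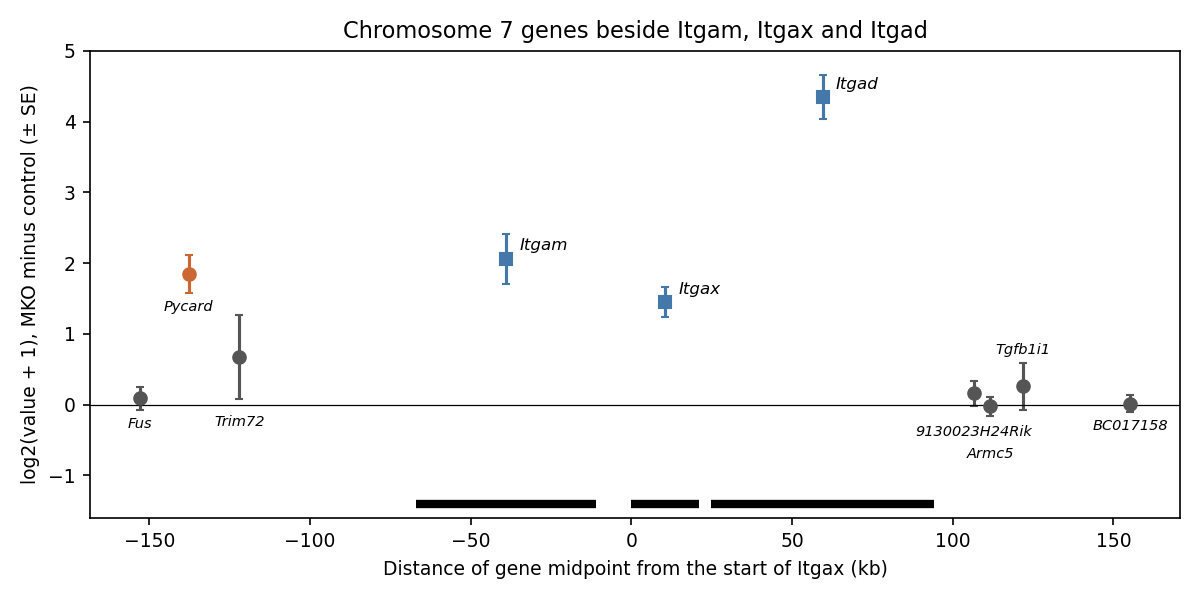
Log2 fold change (MKO minus control, whole liver, ± SE) against the distance of each gene's midpoint from the start of Itgax in kb; squares are family members, circles are other tested genes within 100 kb, orange where limma called them, and black bars show the extent of Itgam, Itgax and Itgad. Pycard is the called neighbour, and the other 6 lie between -0.02 and 0.67.

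Other integrin chains mostly did not pass the test in whole liver, where limma called 2.96% of all genes tested higher. Of 12 other alpha chains tested 1 rose, Itga9, from 245 ± 71.1 to 491 ± 97.0, a log2 difference of 1.02 ± 0.22 (limma adjusted p = 0.0472). Of 6 other beta chains 1 rose, Itgb7, the partner of alpha 4 and alpha E on lymphocytes, from 39.3 ± 5.35 to 101 ± 22.8 (1.33 ± 0.23, adjusted p = 0.0191). List medians were 0.13 and -0.11, beside -0.02 over all genes. The Itga9 call was lost without any library but control 1 (adjusted p up to 0.183), and that of Itgb7 when control 2, control 3, MKO 1 or MKO 2 was removed (highest adjusted p = 0.0927).

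Genes for ligands and counter-receptors of these integrins were not called by limma. Of 17 tested 0 passed by limma or edgeR and 1 by DESeq2, which called 4.16% of all genes higher. An unadjusted p under 0.05 was seen in 2, beside 12.1% of all genes tested, and the list median was 0.16. C3, the source of the complement fragment iC3b bound by Mac-1, had the highest mean over the 6 livers, closely followed by Fgb, and a log2 fold change of -0.07 ± 0.31 (limma adjusted p = 0.960). The following ligand genes lie outside the naming rule and were picked after their values were seen. In 3 of the 17 genes the MKO livers lay above the controls without overlap, beside 10.4% of all genes tested, and nothing is read from that count. These were Vcam1, an endothelial counter-receptor and the gene called by DESeq2, at 0.90 ± 0.23 (limma adjusted p = 0.0893, DESeq2 adjusted p = 0.00514), Icam2 at 0.69 ± 0.32 and the low-count Esm1 at 1.84 ± 0.79. The fibrinogen chain genes Fga, Fgb and Fgg stood at -0.17, -0.17 and -0.25, and Icam1, the main LFA-1 ligand, at 0.39.

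Genes that switch the integrins on from within the cell were higher in part. Of 17 tested, 6 rose and 0 fell (median 0.53), beside 2.96% of all genes called higher. Fermt3, which encodes kindlin-3, went from 146, 110 and 88.7 in controls to 314, 361 and 360 in MKO livers, with a difference of 1.61 ± 0.19 on the log2 scale (limma adjusted p = 0.00460). Fyb, an adaptor also called ADAP, went from 148 ± 33.6 to 504 ± 84.0 (adjusted p = 0.00427), Coro1a, an actin regulator of leukocytes, from 163 ± 38.6 to 587 ± 140 (0.00442), and Apbb1ip, which encodes the Rap1 effector RIAM, from 51.5 ± 9.34 to 149 ± 39.1 (0.0131). The remaining called genes, Tln1, which encodes talin, and Cnn2, fall outside the naming rule. The count was 3 without MKO 3, where 1.19% of all genes were called higher. Leaving out MKO 2 or MKO 3 ended the Apbb1ip call (adjusted p up to 0.0651).

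Of 8 genes that restrain the integrins or compete for their tails, 3 rose and 0 fell (median 0.70). Over all genes tested 2.96% were called higher. Flna, filamin A, which binds the beta tail at the talin site, went from 616 ± 92.1 to 1520 ± 154, a log2 difference of 1.31 ± 0.14 (limma adjusted p = 0.00427). Cytip, which binds the LFA-1 regulator cytohesin-1, went from 51.0 ± 17.4 to 233 ± 61.8 (2.20 ± 0.29, 0.00620), and Rap1gap2, a Rap1 inactivator, from 22.3 ± 4.23 to 59.6 ± 4.25 (1.39 ± 0.24, 0.0178). Rap1gap2 was not called when control 2, control 3, MKO 2 or MKO 3 was removed (adjusted p up to 0.0959).

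The signalling genes downstream of bound integrins stood highest of these lists, with 13 of 18 called higher, 0 lower, and a median of 1.57. Over all genes tested 2.96% were called higher. Syk, the kinase recruited by engaged integrins, had control values of 191, 124 and 124 against MKO values of 565, 579 and 594 (log2 fold change 2.01 ± 0.18, limma adjusted p = 0.00310). All 3 MKO values were close together and far above the controls. Fcer1g, an adaptor with the motif that Syk binds, went from 213 ± 37.2 to 859 ± 118 (adjusted p = 0.00234), Rac2, a GTPase of the leukocyte cytoskeleton, from 104 ± 16.7 to 406 ± 98.6 (0.00414), and Lcp2, the adaptor SLP-76, from 112 ± 33.5 to 412 ± 76.5 (0.00489). The count fell to 8 without control 2 (1.56% of all genes called higher), 6 without MKO 2 (1.15%) and 7 without MKO 3 (1.19%). Syk, Fcer1g, Rac2 and Lcp2 stayed called whichever library was removed. Many of these genes are expressed across leukocytes, and markers of several leukocyte types were also higher, as given above. The part of these cells in the counts was not tested.

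In macrophage-like nuclei few of the pathway genes were past 2-fold. Of all 1905 genes reaching the floor 5.04% were past 2-fold higher and 4.72% lower. Of 15 signalling genes reaching the floor, 2 were past 2-fold higher in the MKO pool, Fcer1g (3.15 and 8.24) and Tyrobp, the DAP12 adaptor (1.92 and 4.41), and 0 past 2-fold lower. Of 3 inhibitors 1 was past 2-fold higher, Cytip (1.31 and 2.95). It reached the floor (1.44) only through the MKO pool, so nothing is read from it. Of 10 activation genes, 6 ligand genes, 3 other alpha chains and 2 other beta chains 0 were past 2-fold in either direction.

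**Figure D5:**
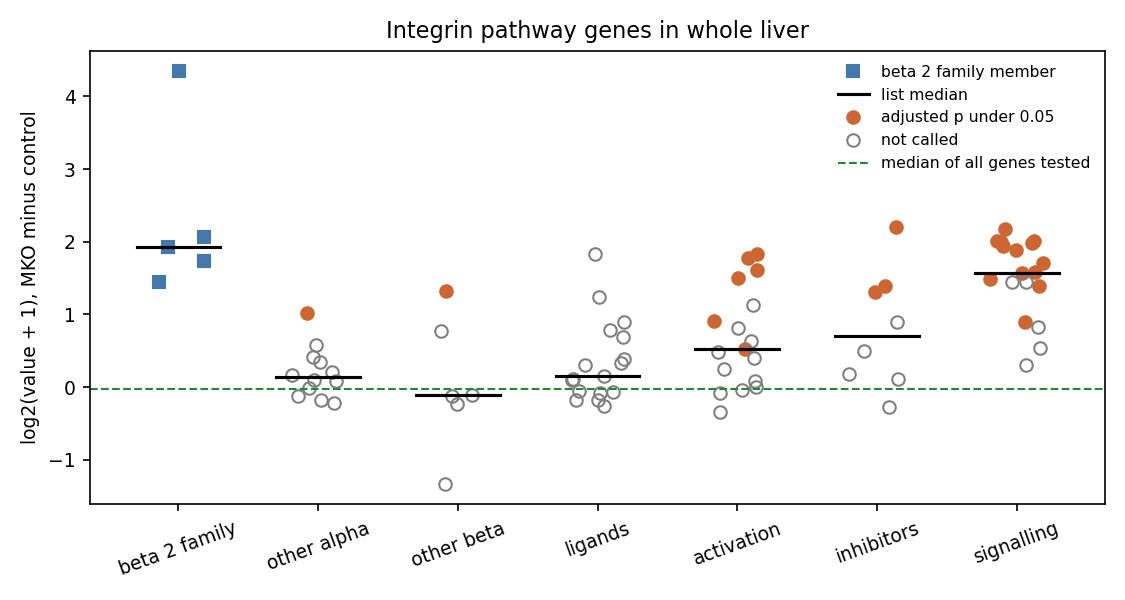
Log2 fold change (MKO minus control, whole liver) of each tested gene in the beta 2 family (squares) and in 6 lists; filled circles passed limma's adjusted p of 0.05, black lines are list medians and the dashed line is the median of all genes tested. The signalling list (median 1.57) lies above the activation list (0.53), and the ligand list (0.16) holds no called gene.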

How the data were processed

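The whole liver signal was deposited by the authors as reads per gene after division by a size factor for each library. Software named per the submitters' processing notes, in roles not given there, comprised RSEM 1.3.3 with STAR, Seurat 4.0.1 with Cell Ranger, DESeq2 and FastQC, on mm10. Division by the value of 1 read in each library gave whole numbers for 100% of values (tolerance 0.01), called recovered reads here. Whole numbers do not show whether they were raw counts or rounded estimates. The nucleus signal deposited by the authors is a mean per gene and cluster. The authors' deposited log2 fold changes are quoted where named; their deposited p-value columns were not used.

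The test was limma-trend (limma 3.58.1, R 4.3.3) on log2(value + 1), genotype the only term, over genes with a mean of at least 1 (34 left out), Benjamini-Hochberg adjusted. Alternatives were edgeR 4.0.16 and DESeq2 1.42.0 on recovered reads, other scalings, pseudocounts and filters, a replicate block and leaving out each library; the fits were tested on simulated data. The labels do not say that libraries are separate animals, so p-values measure spread between samples.

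Members, pathway lists and markers were chosen with earlier results of these data known. Named genes were all members, up to 4 called genes per pathway list by p (the most abundant where none was called), the called or nearest neighbours within 100 kb, and the 5 genes most correlated with each member, of which 1 is not reported here.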

Additional observations from a re-analysis of the deposited data

How the results depend on the processing

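The 5 members kept a positive log2 fold change under all 15 alternatives in whole liver, and the family count was 5 except with libraries left out (3 to 5). With 1 library left out, all genes higher ranged from 175 to 410 and lower from 5 to 31 (452 and 13 with all libraries; DESeq2 called 50 lower), other alpha chains and other beta chains from 0 to 1 each, ligands from 0 to 1, activation genes from 3 to 6 and signalling genes from 6 to 13. DESeq2 called 1 ligand gene. The other alpha chains had 0 called with no filter and with the replicate block. The replicate block gave 391 genes higher and 17 lower and 5 family members; the numbers do not pair the livers (correlations of deviations 0.0557, -0.0300 and -0.109). C3 turned positive without control 2 (0.09) and without MKO 1 (0.11), within -0.23 to 0.11 over the 6; the cause was not tested. In nuclei the cluster 2 count was 1 at each setting, and with a floor at the 75th percentile 3 members passed 2-fold in cluster 10, beside 10.2% of genes. Within 250 kb 2 of 52 neighbours tested were called higher, beside 2.96% of all genes tested. Of the 25 genes most like a member 10 remained at a pseudocount of 0.1. Low depth limits Itgad in controls, at 3 to 5 reads per library.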
